A study of Bos taurus with 6 samples.

Results

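Bovine bone marrow mesenchymal stem cells (MSCs) that had been compressed up to day 42 were compared with the same kind of culture at day 21, the day on which compression began. The comparison used 2 of the 6 arrays of the study, 1 for each side. Of 24016 probe sets other than controls, 11396 had a signal over 50 on at least 1 of these arrays and were taken as members. They cover 5792 of the 9155 genes with a named probe set, counting 1 probe set per gene.

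The cells were seeded in agarose hydrogel and fed a chemically defined medium with transforming growth factor beta 3 (TGF-beta3), the factor that drives MSCs towards cartilage cells (chondrogenesis). The loaded day 42 culture (MSC_d42_TGF_dynamic_loading) grew for 21 days without compression and then received dynamic compression for 21 days, with TGF-beta3 throughout. An unloaded culture with TGF-beta3 (MSC_d42_TGF) stayed free of compression to the same day, and its signals are given beside the others without entering any ratio. The day 21 culture (MSC_d21_TGF) had TGF-beta3 and no compression. The loaded and the day 21 array therefore differ by the compression and by 21 more days of culture, which cannot be told apart in this pair. Donors, the number of constructs per array and the compression regime are not given in the sources used here.

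Cartilage cells lay down type II collagen fibrils and the proteoglycan aggrecan, which draws water into the tissue. In growth cartilage they later enlarge, switch on type X collagen and mineralise, a state called hypertrophy that is unwanted in engineered articular cartilage. Compression reaches the cells through matrix strain, fluid flow and pressure, and is known to induce immediate early genes, whose transcripts appear soon after a stimulus and decay fast.

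Each value is a linear signal intensity for a probe set, on the authors' scale. There were no replicates, so no difference could be set against a spread between cultures, and no p-value was computed. A difference is called higher or lower where the loaded and day 21 signals differ at least 2-fold, a rule of size only. Signals under 15.1, the 40th percentile of all values, were set to it before a ratio was taken. A ratio with 1 side there is a lower bound, written "at least".

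The median signal was 34.9 on the loaded and 26.9 on the day 21 array, and 65.3% against 57.8% of probe sets lay over 15.1. Hybridisation spikes, foreign transcripts added in a set amount, had a median signal of 5823 on the loaded and 3212 on the day 21 array. Their 18 log2 ratios had a median of 0.83 and lay between 0.74 and 0.91, so every log2 ratio between 0 and 0.83 becomes negative when the arrays are centred on the spikes instead of the authors' scaling. The 3 prime to 5 prime signal ratio, a gauge of RNA integrity and amplification, was 1.80 against 1.51 for GAPDH, 7.52 against 4.86 for cyclophilin and 8.05 against 6.83 for eIF4E, loaded against day 21. Their part in the results was not tested. All 7 of the chondrocyte markers with a probe set had signals over 50 on both arrays. Their summed signal was 54836 loaded, 60862 unloaded and 35147 at day 21, highest on the unloaded array.

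On the authors' scaling, the gene lists for cartilage matrix, hypertrophy, immediate early response, lipid metabolism and lysosomes had medians above that of all genes on the loaded day 42 array, and those for cell division and smooth muscle lay below it. Of these, only the adipocyte median stays above 0 when centred on the spikes. Only medians are compared here, and most members of each of these lists other than the adipocyte one were within 2-fold. Outside these, the marrow stromal (6 members) and macrophage and blood cell (5 members) lists also kept medians above 0 on the spikes, at 0.22 and 0.12. At the 2-fold rule 1713 probe sets (15.0%) were higher and 1349 (11.8%) lower, and the median log2 ratio was 0.02. By genes, 850 (14.7%) were higher, 485 (8.37%) lower and 4457 (77.0%) within 2-fold, with a median log2 ratio of 0.08. A gene over 50 on 1 array alone was a member only through the array where it was high. Of the 4799 genes over 50 on both arrays, 342 (7.13%) were higher and 301 (6.27%) lower, and for many lists the count over such genes is given beside the main one. At least 4-fold, 178 genes were higher and 54 lower. The higher probe sets made up 55.9% of those past the rule, but 10.6% (555 higher, 4686 lower) when centred on the spikes, which moved the median log2 ratio to -0.81. RNA came from whole cultures, so fewer cells of a kind and less RNA per cell cannot be told apart.

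**Figure D1:**
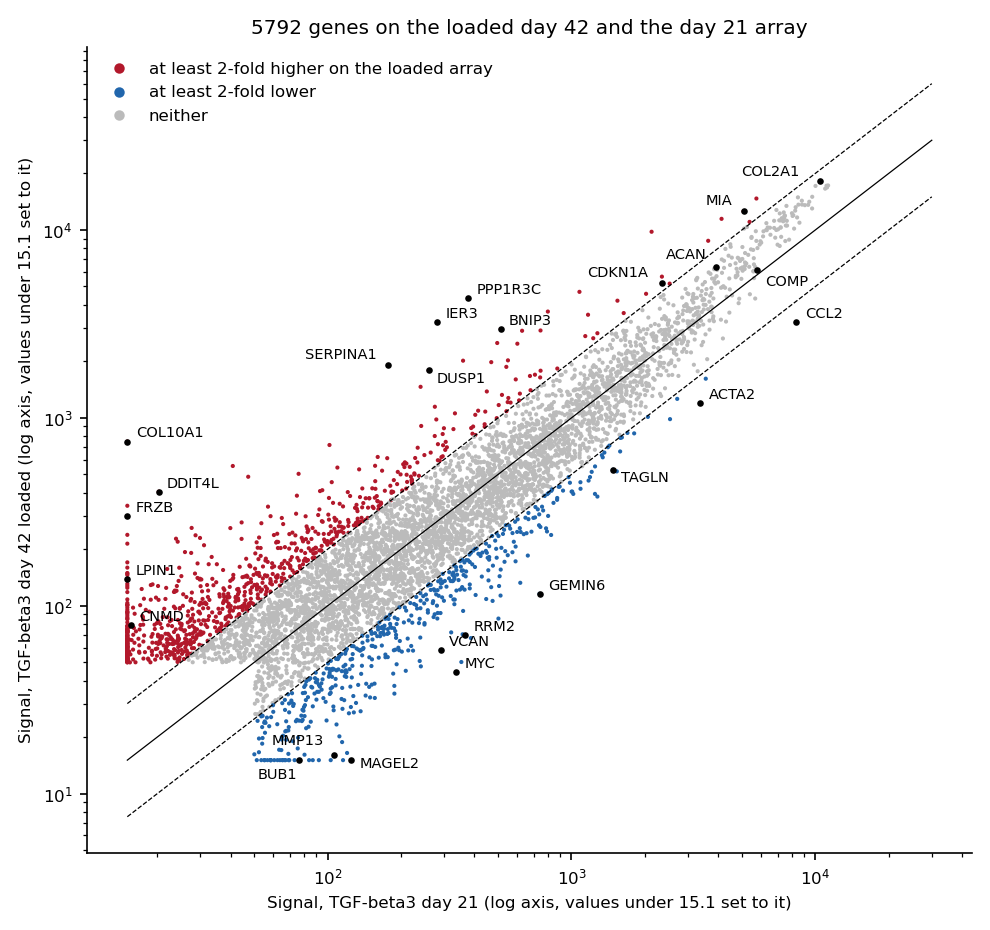
Signals of the 5792 member genes on the day 21 array (x axis) and on the loaded day 42 array (y axis), both on log axes, with values under 15.1 set to it. Red points are the 850 genes at least 2-fold higher, blue points the 485 at least 2-fold lower, the solid line marks equal signals and the dashed lines 2-fold; black points carry gene names. The points widen towards low signals, and COL10A1 and FRZB stand at the left edge because their day 21 signals lay under 15.1.

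The gene farthest apart was COL10A1, which encodes type X collagen of hypertrophic cartilage. Its signal was 748 on the loaded, 107 on the unloaded and 2.06 on the day 21 array, so it was at least 49.4-fold higher on the loaded array. The loaded culture thus stood above both unloaded ones, and the unloaded day 42 culture above day 21. FRZB, a secreted Wnt antagonist of cartilage, had 299.7 on the loaded, 171 on the unloaded and 11.3 on the day 21 array, at least 19.8-fold higher. SMPD3, a neutral sphingomyelinase needed for normal bone and cartilage mineralisation in mice, had 239 on the loaded, 107 on the unloaded and 8.47 on the day 21 array, at least 15.8-fold higher. All of these lay under 15.1 at day 21, as did PARM1, a membrane glycoprotein (341 loaded, 111 unloaded and 13.98 at day 21), HP, the haemoglobin carrier haptoglobin (214 loaded, 698 unloaded and 13.2 at day 21), and the transcription factor SALL2 (170.3 loaded, 173 unloaded and 4.78 at day 21). HP was lower on the loaded than on the unloaded day 42 array, and SALL2 had nearly the same signal on both.

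Among genes measured on both arrays, DDIT4L, an inhibitor of mTOR signalling, was 19.9-fold higher, with a signal of 405 on the loaded, 243 on the unloaded and 20.3 on the day 21 array. KCNK5, a pH-sensitive background potassium channel, followed at 555 loaded, 353 unloaded and 40.9 at day 21, 13.6-fold higher. PPP1R3C, which targets protein phosphatase 1 to glycogen, had 4343 on the loaded, 1231 on the unloaded and 377 on the day 21 array, 11.5-fold higher, and its 3 probe sets gave log2 ratios between 3.30 and 3.53. In each of these the loaded signal was the highest of the 3 and the day 21 signal the lowest. SERPINA1, the protease inhibitor alpha-1-antitrypsin, was 10.7-fold higher at 1907 loaded, 2527 unloaded and 178 at day 21, with a log2 ratio of 3.44 on its second probe set. ETS1, a transcription factor, was 10.3-fold higher at 486 loaded, 432 unloaded and 47.3 at day 21, and its other probe sets gave 1.65 and 2.89 on the log2 scale. SERPINA1 and ETS1 were high on both day 42 arrays.

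SOX10, a transcription factor of the same subgroup as the cartilage regulator SOX9, had 228 on the loaded, 127 on the unloaded and 23.9 on the day 21 array, 9.52-fold higher. IVD, an enzyme of leucine breakdown, was 9.37-fold higher (259.7 loaded, 150.0 unloaded and 27.7 at day 21), IRAK1BP1, a binding partner of the kinase IRAK1, 8.25-fold higher (237 loaded, 53.6 unloaded and 28.8 at day 21), and ARHGAP32 7.42-fold higher (193 loaded, 148 unloaded and 26.02 at day 21). The amylase gene AMY2B was 9.03-fold higher on its taken probe set, but its second probe set gave a log2 ratio of -0.82, so its direction is not settled by these arrays. SOX9 had no named probe set here.

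At the other end stood MYC, the growth-promoting transcription factor, at 44.5 on the loaded, 70.9 on the unloaded and 337 on the day 21 array, which made it 7.59-fold lower on the loaded array. PARVB, an actin-linked adaptor of focal adhesions, had 16.5 loaded, 37.96 unloaded and 120.2 at day 21 (7.29-fold lower), and ATP6V0A2, a subunit of the proton pump, 50.2 loaded, 68.7 unloaded and 354 at day 21 (7.03-fold lower, with a log2 ratio of -1.13 on its second probe set). GEMIN6, a member of the complex that assembles spliceosomal particles, had 116 loaded, 329.9 unloaded and 739 at day 21 (6.38-fold lower). In all 4 the day 21 signal was the highest and the loaded one the lowest of the 3. CHST2, a sulfotransferase, was 5.75-fold lower (67.3 loaded, 54.5 unloaded and 387 at day 21), SORD, sorbitol dehydrogenase, 5.53-fold lower (20.2 loaded, 23.8 unloaded and 112 at day 21), and GTF2H2, a subunit of transcription factor TFIIH, 5.07-fold lower (70.6 loaded, 165 unloaded and 358 at day 21).

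GNAT2, a transducin subunit, differed from these in its unloaded signal, at 18.8 loaded, 156 unloaded and 115 at day 21 (6.09-fold lower), which placed the unloaded array highest. The zinc finger gene ZNF668 was 5.51-fold lower (34.1 loaded, 47.2 unloaded and 188 at day 21). DLAT, a subunit of pyruvate dehydrogenase, was 5.86-fold lower on its taken probe set, whereas its others gave log2 ratios of -1.72 and 0.01. Lower bounds in this direction were given by MAGEL2 (4.86 against 125, loaded against day 21, at least 8.25-fold lower), the centromere gene CENPN (8.05 against 116, at least 7.64-fold lower), the glycosylation enzyme ALG3 (14.3 against 103, at least 6.8-fold lower), the Ras pathway inhibitor SPRED1 (14.2 against 92.1, at least 6.08-fold lower), the cyclic GMP phosphodiesterase PDE5A (14.4 against 86.95, at least 5.74-fold lower) and the splicing factor CENATAC (9.61 against 83.98, at least 5.55-fold lower). All 6 had a loaded signal under 15.1.

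Of 11 cartilage matrix genes 4 were at least 2-fold higher (36.4%, against 14.7% of all genes) and 7 were within 2-fold, and all 11 log2 ratios lay above 0. Among those over 50 on both arrays, the count was 3 of 10 higher and none lower, beside 7.13% and 6.27% of such genes. Their median log2 ratio was 0.73 on the authors' scale, 0.30 after quantile normalization and -0.10 when centred on the spikes. The main fibril collagen, COL2A1, had a signal of 18307 on the loaded, 20799 on the unloaded and 10475 on the day 21 array, which made it 1.75-fold higher than at day 21. Its other 3 probe sets gave log2 ratios between 0.85 and 1.33, so all 4 lay above 0 on this scale, although 0.81 itself falls below the shift of the spikes. Aggrecan, ACAN, had 6321 on the loaded, 3776 on the unloaded and 3896 on the day 21 array, 1.62-fold higher, but its other probe sets gave log2 ratios of -0.68 and -0.45. The aggrecan direction thus depends on the probe set.

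Past 2-fold were CNMD, the cartilage angiogenesis inhibitor chondromodulin, at 78.6 loaded, 87.8 unloaded and 15.6 at day 21 (5.05-fold higher), MIA, a small protein secreted by chondrocytes, at 12551 loaded, 11719 unloaded and 5073 at day 21 (2.47-fold higher), the minor fibril collagen COL11A2 at 331 loaded, 230.3 unloaded and 154 at day 21 (2.14-fold higher), and COL9A1, a collagen on the surface of type II fibrils, at 925 loaded, 411 unloaded and 440.5 at day 21 (2.1-fold higher). Of these, CNMD and MIA had nearly equal signals on both day 42 arrays, whereas COL9A1 was high on the loaded array alone. The second COL9A1 probe set gave a log2 ratio of 0.20. HAPLN1, the link between aggrecan and hyaluronan, had 9067 loaded, 10762 unloaded and 5467 at day 21 (1.66-fold higher), and chondroadherin, CHAD, which binds cells to collagen, 2173 loaded, 1819 unloaded and 1604 at day 21 (1.35-fold higher). Cartilage oligomeric matrix protein, COMP, was level at 6135 loaded, 8684 unloaded and 5762 at day 21, a log2 ratio of 0.09 with -0.94 on its second probe set. HAPLN1, CHAD and COMP all fall below day 21 when centred on the spikes. PITX1, a limb transcription factor, was the 1 member of the chondrogenic transcription factor list and had 56.9 loaded, 35.4 unloaded and 55.2 at day 21.

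Of 11 hypertrophy and mineralisation genes 4 were higher (36.4%, against 14.7% of all genes), 1 lower and 6 within 2-fold, with a median log2 ratio of 0.69 (-0.13 when centred on the spikes). Among those over 50 on both arrays, the count was 1 of 7 higher and none lower, beside 7.13% and 6.27% of such genes. After COL10A1 came MEF2C, a transcription factor that drives hypertrophy, at 219 loaded, 153 unloaded and 61.98 at day 21 (3.54-fold higher). Tissue-nonspecific alkaline phosphatase, ALPL, which frees phosphate for mineral, had 51.4 loaded, 15.4 unloaded and 12.2 at day 21 (at least 3.39-fold higher). ALPL was over 15.1 on both day 42 arrays and only just so on the unloaded one, and its bound turned to -0.04 when ratios were centred within bins of signal. PTH1R, the receptor for parathyroid hormone-related protein, which restrains hypertrophy, was 3-fold higher at 97.3 loaded, 198 unloaded and 32.4 at day 21, with the unloaded array highest.

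Bone sialoprotein, IBSP, a nucleator of mineral, had 11868 loaded, 16329 unloaded and 8061 at day 21 (1.47-fold higher), while its second probe set gave a log2 ratio of 2.81. Osteopontin, SPP1, which binds mineral and integrins, had 2590 loaded, 3853 unloaded and 1595 at day 21 (1.62-fold higher), and the angiogenic factor VEGFA 2670 loaded, 1903 unloaded and 1650 at day 21 (1.62-fold higher). The taken IBSP probe set, SPP1 and VEGFA lay within 2-fold and below the shift of the spikes. MMP13, the collagenase of hypertrophic cartilage, went the other way at 15.99 loaded, 7.06 unloaded and 106 at day 21 (6.64-fold lower), with a log2 ratio of -0.43 on its second probe set. ENPP1, which makes the mineral inhibitor pyrophosphate, had 2230 loaded, 2909 unloaded and 3090 at day 21, a log2 ratio of -0.47. Osteocalcin, BGLAP, lay under 15.1 on all 3 arrays.

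**Figure D2:**
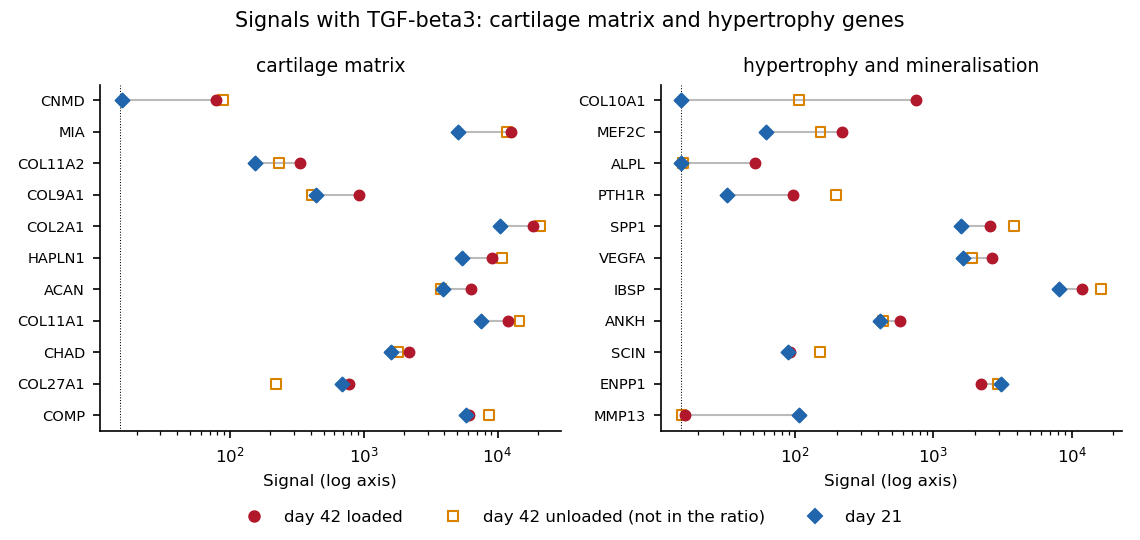
Signals (log axes) of the member genes of the cartilage matrix list (left, 11 genes) and the hypertrophy and mineralisation list (right, 11 genes), sorted by the ratio of loaded over day 21. Red circles are the loaded day 42 array, open orange squares the unloaded day 42 array, blue diamonds day 21; grey lines join loaded and day 21, and the dotted line marks 15.1. COL10A1 spans the widest gap, and MMP13 and ENPP1 are the 2 genes with a loaded signal under that of day 21; centred on the spikes, the medians of both lists fall below 0 (-0.10 and -0.13).

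The fibrous matrix list, the collagens and glycoproteins of tendon and loose connective tissue, was split, with 2 of 22 members higher and 3 lower. The shares were 9.09% and 13.6%, against 14.7% and 8.37% of all genes. The median log2 ratio was 0.09, which was -0.28 after quantile normalization and -0.74 when centred on the spikes. THBS2, a matricellular inhibitor of angiogenesis, had 99.01 loaded, 3.71 unloaded and 23.4 at day 21 (4.22-fold higher) and COL6A2, a chain of the pericellular type VI collagen, 556 loaded, 124 unloaded and 157 at day 21 (3.55-fold higher, with a log2 ratio of 0.94 on its second probe set). In both genes the loaded array stood alone and the unloaded day 42 signal lay below day 21. Versican, VCAN, the large proteoglycan of early condensing mesenchyme, had 58.03 loaded, 18.04 unloaded and 291 at day 21 (5.02-fold lower), with its other probe sets at log2 ratios of -1.85 and -0.54. The fibulins FBLN5, which helps assemble elastic fibres, and FBLN1 were 3.54-fold lower (114 loaded, 72.7 unloaded and 404 at day 21) and 3.18-fold lower (30.9 loaded, 34.6 unloaded and 98.2 at day 21). The bone and tendon collagen COL1A1 was level at 5541 loaded, 3009 unloaded and 5606 at day 21, and TGFBI, an adhesion protein induced by TGF-beta, had 2814 loaded, 1733 unloaded and 1647 at day 21 (1.71-fold higher).

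Collagen processing genes barely differed, with 20 of 21 within 2-fold and a median log2 ratio of 0.03 (-0.10 after quantile normalization and -0.80 centred on the spikes). The exception was LOXL4, a lysyl oxidase that crosslinks collagen, at 353 loaded, 269 unloaded and 844 at day 21 (2.39-fold lower). Of 9 small leucine-rich proteoglycans and lubricin, 8 were within 2-fold, with a median log2 ratio of 0.47 (-0.36 centred on the spikes), and asporin, ASPN, which binds TGF-beta, was lower at 77.2 loaded, 96.5 unloaded and 167 at day 21 (2.17-fold lower). Biglycan, BGN, had 4353 loaded, 4884 unloaded and 3266 at day 21 (1.33-fold higher). The lubricin gene PRG4, whose product covers the joint surface, had 244 loaded, 252 unloaded and 339 at day 21, a log2 ratio of -0.47, and 2 further member probe sets gave -3.16, a lower bound in size, and -2.87. All 3 member probe sets of PRG4 were thus below day 21 on the loaded array, by very different amounts.

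Enzymes that build the sugar chains of proteoglycans had 2 of 13 members higher (15.4%, near the 14.7% of all genes) and none lower, with a median log2 ratio of 0.56 (-0.27 centred on the spikes). These were CHST14, a dermatan sulfotransferase, at 103 loaded, 106 unloaded and 30.7 at day 21 (3.36-fold higher), and CHPF, a chondroitin polymerising factor, at 174 loaded, 282 unloaded and 66.6 at day 21 (2.61-fold higher). Among matrix proteases and their inhibitors 2 of 15 were higher (13.3%, below the 14.7% of all genes) and none lower (median log2 ratio 0.20, -0.62 centred on the spikes). Stromelysin, MMP3, a protease that cleaves proteoglycans and activates collagenases, had 182 loaded, 48.1 unloaded and 33.5 at day 21 (5.44-fold higher), and its inhibitor TIMP1 824 loaded, 581 unloaded and 393 at day 21 (2.1-fold higher, with a log2 ratio of 0.95 on its second probe set). Basement membrane and integrin genes had a median log2 ratio of -0.26, with the same sign under every scaling tried. Of 17 members 1 was higher and 1 lower (5.88% each, against 14.7% and 8.37% of all genes). They were the laminin chain LAMB2 (384 loaded, 289 unloaded and 124 at day 21, 3.1-fold higher) and nidogen, NID1, which links laminin to collagen (53.4 loaded, 15.2 unloaded and 176 at day 21, 3.31-fold lower).

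Immediate early and mechanoresponsive genes had 8 of 20 members higher and 1 lower, against 14.7% and 8.37% of all genes (6 of 16 higher and none lower with both arrays over 50), with a median log2 ratio of 0.66 (-0.17 centred on the spikes). IER3, a stress-induced survival factor, had 3229 on the loaded, 1579 on the unloaded and 281 on the day 21 array, 11.5-fold higher. ZFP36, which speeds the decay of inflammatory messenger RNAs, had 229.7 on the loaded, 43.9 on the unloaded and 29.99 on the day 21 array, 7.66-fold higher. DUSP1, a phosphatase that switches off MAP kinases, had 1789 on the loaded, 283 on the unloaded and 259.7 on the day 21 array, 6.89-fold higher. ZFP36 and DUSP1 were high on the loaded array alone, with the unloaded day 42 signals close to day 21, whereas the unloaded IER3 signal lay between the other two.

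Prostaglandin synthase PTGS2, an inducible enzyme of inflammation and mechanical response, had 610.3 loaded, 802 unloaded and 176 at day 21 (3.48-fold higher), and its other probe sets gave log2 ratios between 2.23 and 2.87. The AP-1 transcription factor subunits FOSL2, JUN and JUND were 4.33-fold higher (412 loaded, 312 unloaded and 95.1 at day 21), 3.46-fold higher (1868 loaded, 1601 unloaded and 540.5 at day 21) and 3.03-fold higher (3537 loaded, 2149 unloaded and 1169 at day 21). PTGS2 was highest on the unloaded array, and JUN was nearly as high there as on the loaded one. FOS, the classic early AP-1 subunit, was level at 352 loaded, 469.5 unloaded and 376 at day 21, and the early growth response gene EGR1 had 118 loaded, 309 unloaded and 74.6 at day 21 (1.58-fold higher), highest on the unloaded array. MYC alone of the list was at least 2-fold lower.

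Targets of the mechanosensitive coactivators YAP and TAZ had 1 of 9 higher (11.1%, against 14.7% of all genes). It was ARHGEF17 (260.1 loaded, 248 unloaded and 116 at day 21, 2.25-fold higher). The median log2 ratio was 0.22 (-0.61 centred on the spikes). The connective tissue growth factor CCN2 of that list had 9992 loaded, 12719 unloaded and 6911 at day 21. The 6 mechanosensing channel and cilium genes were within 2-fold on their taken probe sets. They were the gap junction protein GJA1 (7534 loaded, 5794 unloaded and 5148 at day 21), the channels PANX1 (67.7 loaded, 40.99 unloaded and 55.5 at day 21) and PKD2 (399 loaded, 596 unloaded and 458 at day 21), the cilium motor KIF3A (56.2 loaded, 11.8 unloaded and 59.2 at day 21) and the ciliary transport proteins IFT80 (52.6 loaded, 48.8 unloaded and 64.5 at day 21) and IFT20 (1594 loaded, 1820 unloaded and 2193 at day 21). The other member probe sets of PKD2 gave log2 ratios of -1.20, past 2-fold lower, and -0.99.

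In the focal adhesion and cytoskeleton list 17 of 19 were within 2-fold and the median log2 ratio was -0.25, below 0 under every scaling tried. The focal adhesion gene PARVB, 7.29-fold lower, was not on this list. Talin, TLN1, which couples integrins to actin, was 2.05-fold higher (274 loaded, 118 unloaded and 133 at day 21), but within 2-fold on its second probe set (log2 ratio 0.66). Vinculin, VCL, which strengthens that link, was 2.4-fold lower (295 loaded, 118 unloaded and 709 at day 21), with -2.67 on the log2 scale on its second probe set. Smooth muscle and pericyte genes had 4 of 13 lower (30.8%, against 8.37% of all genes) and 1 higher. With both arrays over 50 the count was none of 11 higher and 3 lower, beside 6.27% of such genes lower. The median log2 ratio of -0.39 was also below 0 under every scaling tried. Smooth muscle actin, ACTA2, a contractile protein of myofibroblasts, had 1196 on the loaded, 812 on the unloaded and 3368 on the day 21 array, 2.82-fold lower. Transgelin, TAGLN, an actin-binding protein, had 529.9 loaded, 389 unloaded and 1478 at day 21 (2.79-fold lower) and the intermediate filament gene DES 20.4 loaded, 64.6 unloaded and 65.7 at day 21 (3.22-fold lower). ACTA2 and TAGLN were lower on both day 42 arrays than at day 21. The growth factor receptor PDGFRB was higher at 87.1 loaded, 84.2 unloaded and 40.2 at day 21 (2.17-fold higher). Of the 5 smooth muscle and pericyte markers, ACTA2, TAGLN and CNN1 were over 50 on all 3 arrays, and MYH11 and RGS5 lay under 15.1 on all 3.

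Cell cycle and DNA replication genes gave the lowest median of the lists with more than 1 member, a log2 ratio of -0.81 that stayed below 0 under every scaling tried. Of 29 members 11 were lower (37.9%, against 8.37% of all genes) and 2 higher. With both arrays over 50 the count was 2 of 19 higher and 3 lower, beside 7.13% and 6.27% of such genes. With a floor of 50 on the signal 6 of 29 were lower, beside 371 of all 5792 genes. Most of the 11 thus entered through the day 21 array, where they were high. RRM2, a subunit of the enzyme that makes deoxynucleotides, had 69.8 on the loaded, 24.9 on the unloaded and 368 on the day 21 array, 5.27-fold lower. BUB1, a spindle checkpoint kinase, had 7.18 loaded, 16.7 unloaded and 76.7 at day 21 (at least 5.06-fold lower), and BIRC5, the mitotic regulator survivin, 72.2 loaded, 99.2 unloaded and 321 at day 21 (4.45-fold lower). These were low on both day 42 arrays, and RRM2 was lowest on the unloaded one. The higher members were cyclin D1, CCND1, which starts the cycle, at 122 loaded, 86.5 unloaded and 51.3 at day 21 (2.38-fold higher), and CDKN1A, the inhibitor p21 that halts it, at 5206 loaded, 4678 unloaded and 2347 at day 21 (2.22-fold higher). The proliferation markers MKI67 and TOP2A had no named probe set here.

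**Figure D3:**
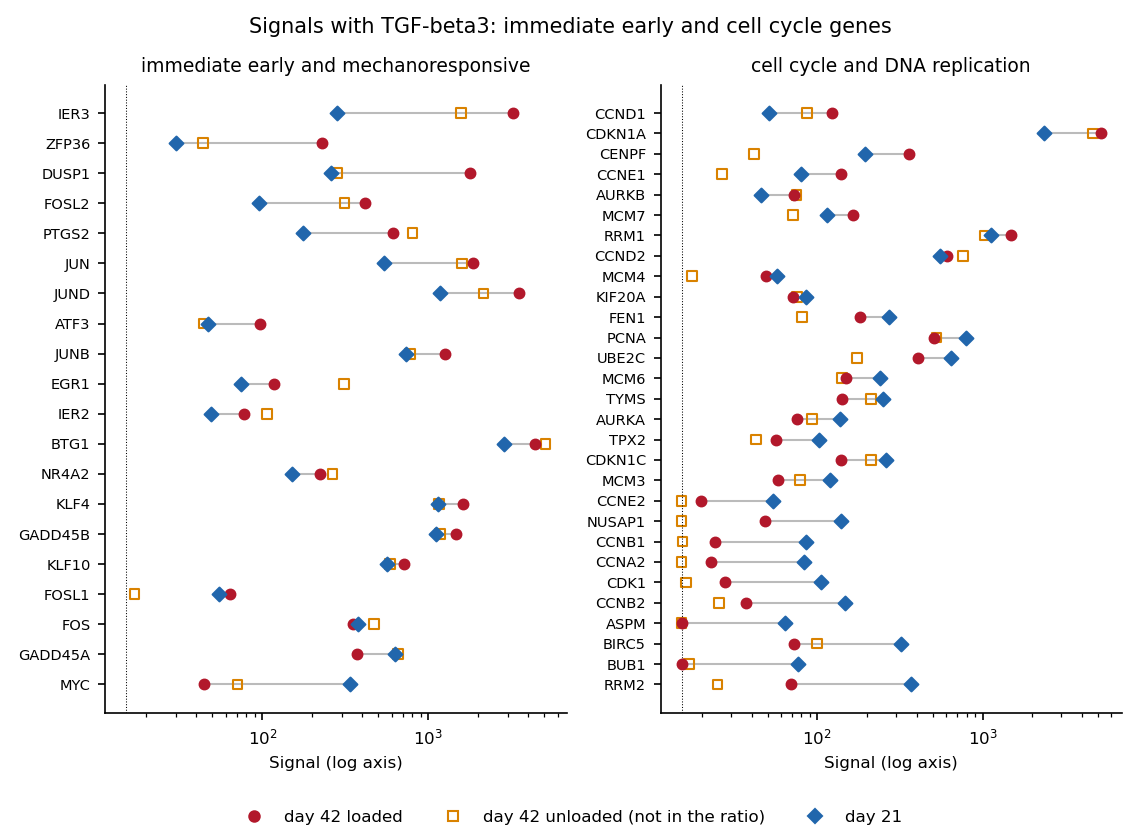
Signals (log axes) of the member genes of the immediate early and mechanoresponsive list (left, 20 genes) and the cell cycle and DNA replication list (right, 29 genes), sorted by the ratio of loaded over day 21. Red circles are the loaded day 42 array, open orange squares the unloaded day 42 array, blue diamonds day 21; grey lines join loaded and day 21, and the dotted line marks 15.1. DUSP1 and ZFP36 have their unloaded squares next to day 21, and most cell cycle genes have the blue diamond to the right; the left list's median of 0.66 becomes -0.17 when centred on the spikes, the right list's stays below 0.

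Of 8 genes of apoptosis and senescence, 3 were higher and 1 lower (37.5% and 12.5%, against 14.7% and 8.37% of all genes). Their median log2 ratio was 0.81 (-0.02 centred on the spikes). The survival gene BCL2L1 had 906 loaded, 629 unloaded and 242 at day 21 (3.74-fold higher), the death receptor FAS 50.6 loaded, 43.6 unloaded and 12.7 at day 21 (at least 3.34-fold higher) and the inflammatory caspase CASP4 269 loaded, 149.5 unloaded and 132 at day 21 (2.04-fold higher), with a log2 ratio of -0.02 on its second probe set. FAS crossed the member limit by little, and its bound turned to -0.06 when ratios were centred within bins of signal. MDM2, which degrades p53, was 3.83-fold lower at 93.9 loaded, 273 unloaded and 359.5 at day 21. With both arrays over 50 the count was 2 of 6 higher and 1 lower, beside 7.13% and 6.27% of such genes. BAX, BIRC3, BCL2 and MCL1 had log2 ratios of 0.99, 0.62, 0.31 and 0.28. The other 4 member probe sets of BCL2 lay between -0.75 and 2.13, so its direction is not settled.

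Of 21 genes of TGF-beta and BMP signalling, 4 were higher and 5 lower (19.0% and 23.8%, against 14.7% and 8.37% of all genes). The median log2 ratio of -0.10 turned to 0.02 after quantile normalization and 0.06 within bins of signal. With both arrays over 50 the count was 1 of 16 higher and 3 lower, beside 7.13% and 6.27% of such genes. BAMBI, a decoy receptor that blocks TGF-beta signals, had 149.5 on the loaded, 40.9 on the unloaded and 12.4 on the day 21 array, at least 9.87-fold higher. ID2 and ID3, targets of BMP that hold back differentiation factors, had 299.9 loaded, 121 unloaded and 58.4 at day 21 (5.14-fold higher) and 126 loaded, 127 unloaded and 49.02 at day 21 (2.56-fold higher), and ID1, outside the rule for named genes, had 104 loaded, 103 unloaded and 48.4 at day 21 (2.15-fold higher). BAMBI and ID2 were highest on the loaded array, while ID1 and ID3 had nearly the same signal on both day 42 arrays.

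The lower ones included the signalling receptor TGFBR1, at 161 loaded, 146 unloaded and 402 at day 21 (2.5-fold lower), and LTBP2, a matrix protein of the latent TGF-beta binding family, at 10.1 loaded, 18.9 unloaded and 66.8 at day 21 (at least 4.41-fold lower). SMAD5, which carries BMP signals to the nucleus, was 4.56-fold lower on the taken probe set, but its second probe set gave a log2 ratio of 1.64. In the list of Wnt, hedgehog, FGF and IGF genes 6 of 25 were higher and 2 lower, with a median log2 ratio of 0.23 (-0.60 centred on the spikes and -0.03 within bins of signal). The shares were 24.0% higher and 8.0% lower, against 14.7% and 8.37% of all genes. With both arrays over 50, however, the count was 1 of 18 higher and 1 lower, beside 7.13% and 6.27% of such genes. Most of the 6 thus entered through the loaded array, where they were high. Besides FRZB, the growth factor IGF2 had 57.1 loaded, 90.4 unloaded and 13.6 at day 21 (at least 3.77-fold higher) and FGFR3, the receptor that restrains growth cartilage, 57.2 loaded, 36.8 unloaded and 15.4 at day 21 (3.72-fold higher, log2 ratio 1.83 on its second probe set). IGFBP2, a binding protein of insulin-like growth factors, was 3.18-fold lower at 21.7 loaded, 24.2 unloaded and 69.04 at day 21. FGF1, a growth factor, was 3.17-fold lower at 394 loaded, 461 unloaded and 1248 at day 21, but its other probe sets gave log2 ratios between -2.09 and 0.71.

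Hypoxia and glycolysis genes all lay above 0 on the log2 scale, 27 of 27, with a median of 0.49 (-0.34 centred on the spikes). Past 2-fold were 6 of them (22.2%, against 14.7% of all genes). With both arrays over 50, 5 of 26 were higher and none lower, beside 7.13% of such genes higher. PFKFB3, which makes the activator of the key glycolytic step, had 717 on the loaded, 588 on the unloaded and 102 on the day 21 array, 7.04-fold higher. BNIP3, a mitophagy receptor induced by low oxygen, had 2965 on the loaded, 1596 on the unloaded and 513 on the day 21 array, 5.78-fold higher. The vasoactive peptide gene ADM had 2502 loaded, 1767 unloaded and 496 at day 21 (5.04-fold higher). All 3 had higher signals on both day 42 arrays than at day 21, and the highest on the loaded one. Respiratory chain genes had 35 of 36 within 2-fold (median log2 ratio 0.25, -0.01 after quantile normalization and -0.58 centred on the spikes), the exception being the complex I subunit NDUFV1 at 294 loaded, 317 unloaded and 138 at day 21 (2.13-fold higher).

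The adipocyte list had 7 of 13 members higher (53.8%, against 14.7% of all genes) and none lower. With both arrays over 50 the count was 3 of 9 higher and none lower, beside 7.13% and 6.27% of such genes. Centred on the spikes 3 of 13 were higher and 1 lower, beside 247 and 2141 of all 5792 genes. Its median log2 ratio of 1.02 stayed above 0 under every scaling tried and was 0.19 when centred on the spikes. LPIN1, an enzyme of triglyceride synthesis, had 139 loaded, 37.5 unloaded and 5.29 at day 21 (at least 9.19-fold higher), PNPLA2, the first lipase of triglyceride breakdown, 128 loaded, 94.8 unloaded and 10.97 at day 21 (at least 8.43-fold higher), and DGAT1, the last enzyme of triglyceride synthesis, 109 loaded, 66.8 unloaded and 27.6 at day 21 (3.94-fold higher). Of the markers that define adipocytes, the lipoprotein lipase LPL had 469 loaded, 469 unloaded and 222 at day 21 (2.12-fold higher) and the fatty acid carrier FABP4 226 loaded, 434 unloaded and 196 at day 21, within 2-fold and highest on the unloaded array. The defining gene ADIPOQ lay under 15.1 on all 3 arrays, the regulator PPARG had 17.4 loaded, 16.5 unloaded and 17.9 at day 21 and the fatty acid transporter CD36 5.34 loaded, 0.891 unloaded and 24.3 at day 21, both too dim to be members. The summed signal of the 5 adipocyte markers with a probe set was 719 loaded, 921 unloaded and 461 at day 21.

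Cholesterol synthesis and uptake genes had 5 of 14 higher (35.7%, against 14.7% of all genes) and none lower, with a median log2 ratio of 0.51 (-0.32 centred on the spikes). With both arrays over 50, 4 of 12 were higher and none lower, beside 7.13% of such genes higher. SREBF1, a master regulator of lipid synthesis, had 408 loaded, 246 unloaded and 93.1 at day 21 (4.38-fold higher, with a log2 ratio of 1.12 on its second probe set). The mevalonate pathway kinases PMVK and MVK had 283 loaded, 467 unloaded and 108 at day 21 (2.64-fold higher) and 105 loaded, 124 unloaded and 41.9 at day 21 (2.52-fold higher). Both kinases were highest on the unloaded array. Of 26 lysosome genes 10 were higher (38.5%, against 14.7% of all genes) and none lower, with a median log2 ratio of 0.80 (-0.03 centred on the spikes). With both arrays over 50 the count was 6 of 21 higher and none lower, beside 7.13% of such genes higher. The proton pump subunit ATP6V0A2, 7.03-fold lower, was not on the lysosome list. Arylsulfatase ARSA, which degrades sulfatides, had 101 loaded, 131 unloaded and 17.1 at day 21 (5.91-fold higher), and the cathepsin proteases CTSZ and CTSD 242 loaded, 259 unloaded and 62.2 at day 21 (3.89-fold higher) and 375 loaded, 283 unloaded and 101 at day 21 (3.7-fold higher). All 3 stood higher on both day 42 arrays than at day 21.

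Ribosomal protein genes shifted together without passing the rule. Of 54 members 53 lay above 0, none was 2-fold higher, and the median log2 ratio of 0.57 was -0.04 after quantile normalization and -0.25 when centred on the spikes. The exception was RPL37 at 259 loaded, 315 unloaded and 614 at day 21 (2.37-fold lower). Proteasome genes were level, with 25 of 26 within 2-fold and a median log2 ratio of -0.07 under the authors' scaling, and PSMD4, a ubiquitin receptor, higher at 422 loaded, 621 unloaded and 152 at day 21 (2.77-fold higher).

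Of 30 heat shock and endoplasmic reticulum chaperones, 4 were higher and 2 lower (13.3% and 6.67%, near the 14.7% and 8.37% of all genes), and the median log2 ratio was -0.21, below 0 under every scaling tried. The higher ones that the rule names were HSPB8 (241 loaded, 209 unloaded and 96.4 at day 21, 2.5-fold higher), HSPA1A (715 loaded, 560.0 unloaded and 298 at day 21, 2.4-fold higher, with other probe sets at log2 ratios between -0.67 and 0.96) and CRYAB (276 loaded, 202 unloaded and 131 at day 21, 2.11-fold higher). The lower ones were HYOU1 (27.5 loaded, 62.6 unloaded and 137 at day 21, 4.97-fold lower, with its second probe set at a log2 ratio of -0.88) and CRELD2 (27.9 loaded, 17.6 unloaded and 66.9 at day 21, 2.39-fold lower). Regulators of the unfolded protein response, which senses misfolded secretory proteins, had 1 of 13 higher and 2 lower. The shares were 7.69% and 15.4%, against 14.7% and 8.37% of all genes. Their median log2 ratio was -0.16, below 0 under every scaling tried. PPP1R15A, which restarts translation after stress, was at least 3.48-fold higher (52.8 loaded, 16.6 unloaded and 7.27 at day 21), the sensor kinase EIF2AK3 2.47-fold lower (75.9 loaded, 77.3 unloaded and 187 at day 21) and the transcription factor CREB3L2 2.08-fold lower (431 loaded, 286 unloaded and 894 at day 21).

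Of 23 oxidative stress and metallothionein genes, 6 were higher and 2 lower (26.1% and 8.7%, against 14.7% and 8.37% of all genes). With both arrays over 50 the count was 4 of 20 higher and 2 lower, beside 7.13% and 6.27% of such genes. The median log2 ratio was 0.46 (-0.37 centred on the spikes). The metal-binding MT3 had 125 loaded, 52.8 unloaded and 13.4 at day 21 (at least 8.23-fold higher), the extracellular superoxide dismutase SOD3 77.9 loaded, 23.6 unloaded and 14.1 at day 21 (at least 5.14-fold higher) and the glutathione peroxidase GPX1 265 loaded, 167 unloaded and 82.02 at day 21 (3.23-fold higher). MT2A, another metallothionein and outside the rule for named genes, had 4202 loaded, 694 unloaded and 1543 at day 21 (2.72-fold higher), with the unloaded signal the lowest of the 3. Thioredoxin reductase TXNRD1 and sulfiredoxin SRXN1, both targets of the antioxidant regulator NFE2L2, were lower at 124 loaded, 301 unloaded and 383 at day 21 (3.09-fold lower) and 139 loaded, 156 unloaded and 331 at day 21 (2.38-fold lower).

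Inflammation genes went both ways, with 4 of 12 higher and 3 lower, beside 14.7% and 8.37% of all genes. Among the 8 over 50 on both arrays, 2 were higher and 2 lower, beside 7.13% and 6.27% of such genes. The median log2 ratio over all 12 was 0.19 (-0.64 centred on the spikes). Inducible nitric oxide synthase, NOS2, had 97.8 on the loaded, 8.25 on the unloaded and 15.9 on the day 21 array, 6.14-fold higher. The acute phase gene SAA3 had 11454 loaded, 7240 unloaded and 4123 at day 21 (2.78-fold higher) and NFKBIA, the inhibitor induced by NF-kappaB, 89.2 loaded, 27.4 unloaded and 39.7 at day 21 (2.25-fold higher). NOS2 and NFKBIA were high on the loaded array alone. The monocyte chemokine CCL2 had 3233 on the loaded, 1873 on the unloaded and 8365 on the day 21 array, 2.59-fold lower, the alarmin IL33 27.1 loaded, 10.8 unloaded and 128 at day 21 (4.73-fold lower) and TNFAIP6, which modifies hyaluronan, 337 loaded, 418 unloaded and 757 at day 21 (2.25-fold lower, with its second probe set at a log2 ratio of -0.76). Of 19 interferon response genes with a probe set 3 were members, B2M (5558 loaded, 5578 unloaded and 3279 at day 21), BOLA (564 loaded, 369 unloaded and 481 at day 21) and USP18 (78.3 loaded, 47.1 unloaded and 78.2 at day 21), all within 2-fold.

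None of the 9 defining macrophage and blood markers passed 50 on any of the 3 arrays, and their summed signal was 95.5 loaded, 138 unloaded and 69.1 at day 21, with AIF1, CD68, CD53 and the haemoglobins under 15.1 on all 3. Of the longer macrophage and blood list 5 of 26 were members, all above 0 on the log2 scale (median 0.95, 0.12 centred on the spikes). They were LAPTM5, a lysosomal membrane protein of blood cells (55.1 loaded, 76.8 unloaded and 14.8 at day 21, at least 3.64-fold higher), the calcium-binding S100A9 (248 loaded, 275 unloaded and 89.1 at day 21, 2.79-fold higher), S100A12 (100.3 loaded, 23.4 unloaded and 51.9 at day 21) and S100A8 (323 loaded, 209.6 unloaded and 248 at day 21), and the oxidase subunit CYBA (70.96 loaded, 98.2 unloaded and 42.3 at day 21). The endothelial genes PECAM1, CDH5, VWF and KDR were under 15.1 on the loaded and day 21 arrays, and ERG, a transcription factor of endothelium and cartilage, had 224 loaded, 210.2 unloaded and 388 at day 21, with a log2 ratio of -1.33 on its second probe set.

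Marrow stromal genes had 3 of 6 higher and none lower, with a median log2 ratio of 1.04 (0.22 centred on the spikes). CXCL12 and MME entered through the loaded array alone, where they were high. With both arrays over 50 the count was 1 of 4 higher and none lower with a median of 0.78, beside 7.13% of such genes higher. The chemokine CXCL12, which holds blood stem cells in the marrow, had 104 on the loaded, 4.15 on the unloaded and 14.1 on the day 21 array, at least 6.84-fold higher, so it was high on the loaded array alone. The peptidase MME had 65.6 loaded, 30.8 unloaded and 7.86 at day 21 (at least 4.33-fold higher) and PDPN, podoplanin, 2653 loaded, 1981 unloaded and 1228 at day 21 (2.16-fold higher). The adhesion and signalling genes ANGPT1, NT5E and ALCAM had log2 ratios of 0.97, 0.58 and 0.25. The tendon gene TNMD was under 15.1 on all 3 arrays.

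**Figure D4:**
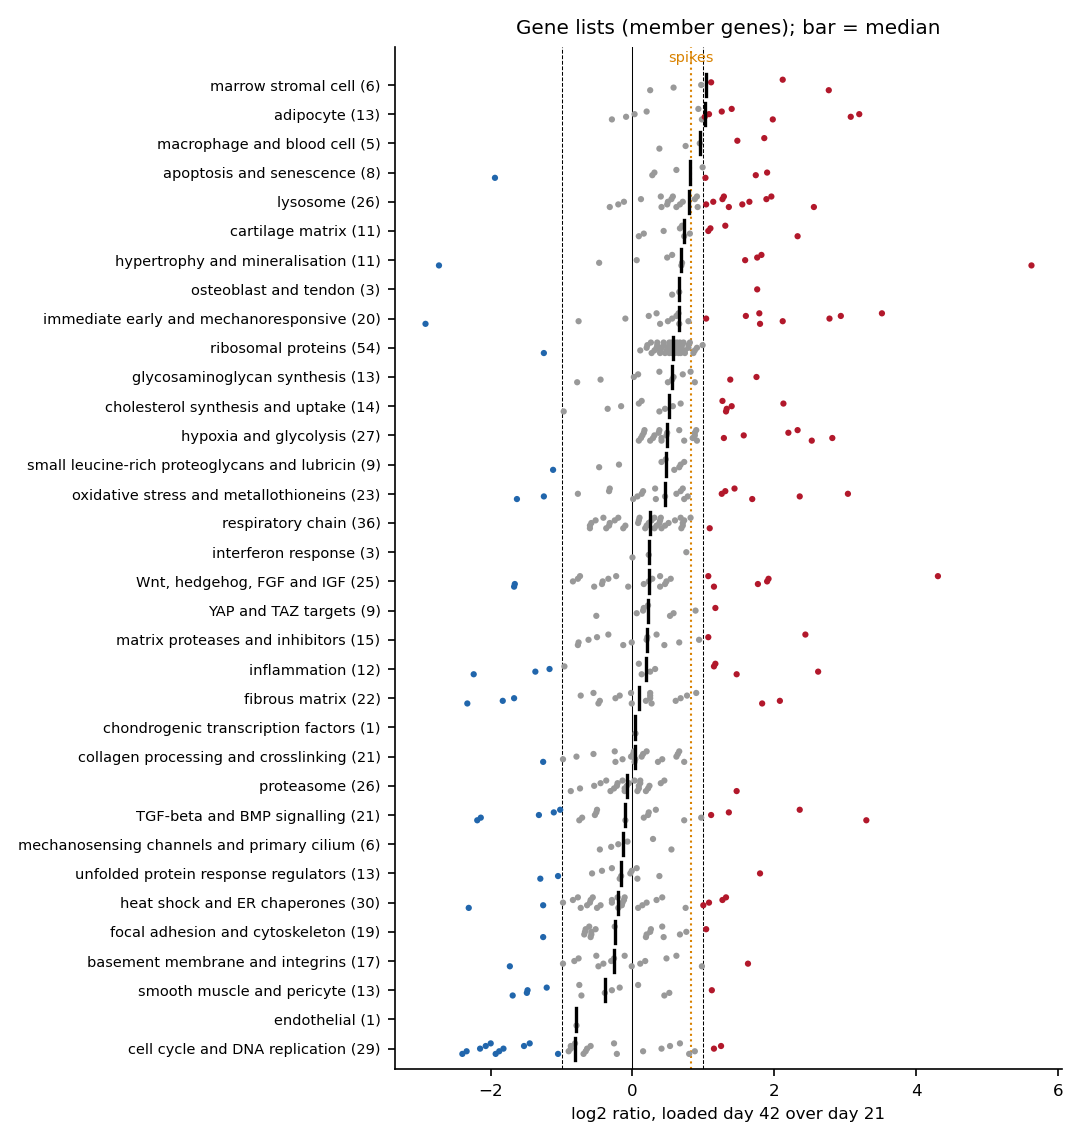
Log2 ratios of loaded day 42 over day 21 (x axis) for the member genes of the 34 lists (rows, number of members in brackets), sorted by the list's median, drawn as a black bar. Red and blue points are genes at least 2-fold higher and lower, dashed lines mark 2-fold, and the dotted orange line marks the spikes' median of 0.83. A list whose bar lies between 0 and that line falls below 0 when centred on the spikes, as do cartilage matrix (-0.10) and hypoxia and glycolysis (-0.34); the cell cycle list stays below 0 and the adipocyte list above it.

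How far a ratio can be read depended on the signal. Among 303 member probe sets with a geometric mean signal under 32, the median log2 ratio was 1.80, with 72.3% at least 2-fold higher and 27.7% lower. All were past the rule, since only a gap between the arrays brings so dim a probe set over 50. Why more of them were higher than lower was not tested. Between 256 and 512 the median was -0.17, with 4.70% higher and 8.54% lower, and at 2048 or more it was 0.35, with 3.65% higher and 0.577% lower. Of the 1005 genes with a signal over 1000 on at least 1 array, 53 were higher and 29 lower.

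**Figure D5:**
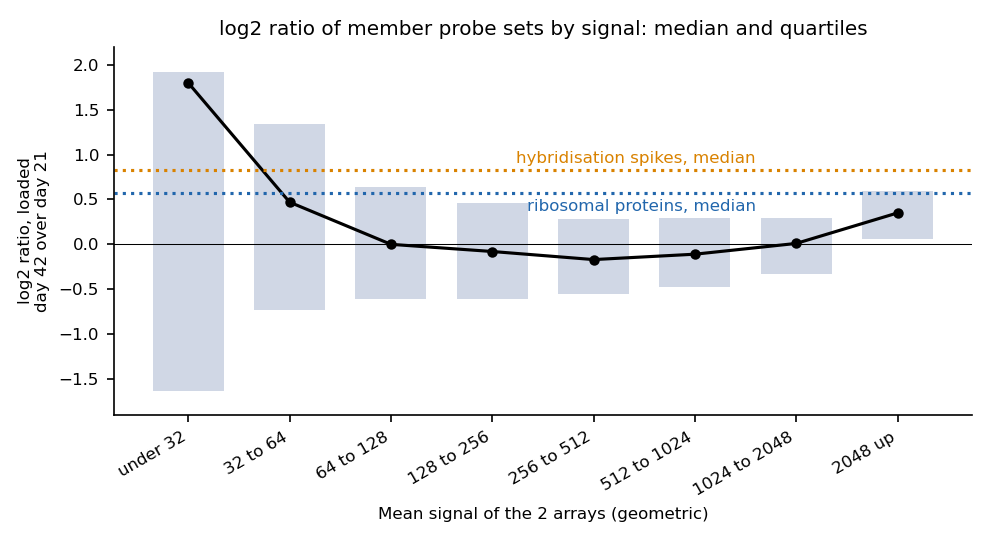
Log2 ratio of loaded day 42 over day 21 (y axis) for member probe sets in 8 bins of the geometric mean signal of the 2 arrays (x axis). Points joined by a line are medians and grey bars span the quartiles; dotted lines mark the medians of the hybridisation spikes (0.83) and of the ribosomal protein genes (0.57, which is -0.04 after quantile normalization and -0.25 centred on the spikes). The line falls from 1.80 in the dimmest bin to -0.17 between 256 and 512 and is 0.35 in the brightest.

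Where 1272 genes had several member probe sets, their log2 ratios had a pooled SD of 0.70 within a gene, a median range of 0.66 and a 90th percentile of the range of 1.79. Of 217 genes past 2-fold that had further probe sets, 162 had the same sign on all of them and 96 were 2-fold the same way on all. This spread covers the array measurement, not cultures. Just inside the member limit were PYCARD (50.02 loaded, 15.5 at day 21), EDNRB (50.03 loaded, 14.8 at day 21) and USP37 (50.06 loaded, 44.1 at day 21), and just outside it UCKL1 (49.99 loaded, 28.9 at day 21), VOPP1 (25.6 loaded, 49.99 at day 21) and ANPEP (49.97 loaded, 24.1 at day 21).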

How the data were processed

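Total RNA was extracted with TRIZOL-chloroform, amplified linearly with ribo-SPIA and hybridised to Affymetrix bovine arrays, per the labels' protocols. The deposited values are linear signal intensity per probe set, made by the authors with MAS5 per the submitters' processing notes (no version stated there). After trimming 2% at each end the mean was 150.1 on the loaded and 150.0 on the day 21 array, so the authors' scaling was kept. Precision is limited by having 1 array per group.

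Of 24016 probe sets without controls, 13292 had 1 gene name in the platform annotation, 86 several and 10638 none, and 13263 Entrez identifiers were found in the gene table. A gene was represented by its brightest probe set (mean log2 signal, all 6 arrays). Log2 ratios, counts and medians were computed with Python 3.11.15, numpy 2.4.6 and pandas 2.3.3, and plotted with matplotlib 3.10.9. Named genes are the 12 highest and 12 lowest ratios above 15.1 on both arrays, the 6 largest bounds each way, the 3 highest and 3 lowest members past 2-fold of each of 34 lists, all members of lists of up to 8, and 20 set genes; placeholder symbols were left out of the extremes. Other genes named were chosen after their values were seen. Members and lists were chosen with earlier results of these data known. Alternatives were median centring, quantile normalization, centring on the spikes, other floors, member rules and size rules, 1 probe set per gene, and a median over the probe sets of each gene. All per-sample columns were mapped to a sample, and 0 were left over. Sequences were not used here.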

Additional observations from a re-analysis of the deposited data

How the results depend on the processing

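Centred on the hybridisation spikes, 555 probe sets were higher and 4686 lower and the median log2 ratio was -0.81. With a floor at a signal of 50, or a member rule of over 100 on at least 1 array, 879 were higher and 908 lower. These settings make the same calls by construction, since a signal must reach 100 to be 2-fold over 50. With a signal over 50 on both arrays, 563 were higher and 707 lower. A 1.5-fold rule gave 2992 and 2676, a 3-fold rule 842 and 481, and 1 probe set per gene 850 and 485, higher and lower. Median centring (1664 and 1403), quantile normalization (1574 and 1423) and the 40th percentile added in place of a floor (1352 and 1025) kept both counts within 1.5-fold. Without a floor the counts were the same (1713 and 1349), which was fixed in advance. A member has a signal over 50, so a partner under 15.1 is past 2-fold either way. Centring within bins of signal, chosen after seeing the data, gave 1294 and 1456; ALPL (-0.04) and FAS (-0.06) changed sign. Of 120 named genes past 2-fold, 120 stayed past it after median centring, 115 after quantile normalization, 108 within bins, 114 with a median over the gene's probe sets, 98 with a floor at 50 and 91 centred on the spikes. Most of them were named for the size of these same ratios, and median centring shifts each ratio by 0.02. The counts therefore do not show how stable the calls are among all genes. Centring on the spikes subtracts 0.83 from every log2 ratio, so it lowered all 37 list medians by that same amount. The cell cycle list stayed below 0 under every setting run, and the adipocyte list above 0. Low signal limits the ratios: 309 members were under 15.1 at day 21 and 113 on the loaded array. No paired analysis was possible because each group has 1 array and the result comes from no test.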

Other observations

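Several groups were gathered after their values were seen, so their counts describe these arrays only. Of 51 ribosome assembly factors, nucleolar proteins that build ribosomal subunits, 16 were at least 2-fold lower and 2 higher on the loaded array. The shares were 31.4% lower and 3.92% higher, against 8.37% and 14.7% of all genes. The median log2 ratio of -0.64 stayed below 0 under every setting run. With both arrays over 50, none of 44 was higher and 13 were lower, beside 6.27% of such genes lower. NOLC1, a nucleolar phosphoprotein, had 109 loaded, 153 unloaded and 447 at day 21 (4.11-fold lower), GAR1, a subunit of the particles that modify ribosomal RNA, 519 loaded, 377 unloaded and 1534 at day 21 (2.96-fold lower), and BRIX1, a factor of the large subunit, 238 loaded, 186 unloaded and 825 at day 21 (3.46-fold lower). All 3 were lower on both day 42 arrays than at day 21. The exceptions were TCOF1, a cofactor of ribosomal RNA synthesis (131 loaded, 253 unloaded and 3.65 at day 21, at least 8.64-fold higher), and RRP12 (134 loaded, 38.6 unloaded and 48.6 at day 21, 2.75-fold higher).

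Of 28 genes that break down fatty acids and branched-chain amino acids, 8 were higher and 3 lower (28.6% and 10.7%, against 14.7% and 8.37% of all genes). With both arrays over 50 the count was 4 of 21 higher and 2 lower, beside 7.13% and 6.27% of such genes. The median log2 ratio over all 28 was 0.23 (-0.59 centred on the spikes). Besides IVD, ACADS, which opens the breakdown of short fatty acids, had 191 loaded, 107 unloaded and 27.6 at day 21 (6.93-fold higher) and DECR2, a peroxisomal reductase, 108 loaded, 64.6 unloaded and 18.8 at day 21 (5.72-fold higher), while CPT2, which carries long fatty acids into mitochondria, had 135 loaded, 258 unloaded and 325 at day 21 (2.4-fold lower). Of 13 regulatory subunits of protein phosphatase 1, 8 were higher and 1 lower (61.5% higher, against 14.7% of all genes). With both arrays over 50 the count was 2 of 6 higher and none lower, beside 7.13% and 6.27% of such genes. With a floor of 50 on the signal 3 of 13 were higher, beside 489 of all 5792 genes. The median log2 ratio of 1.32 was 0.23 when ratios were centred within bins of signal. Most of them were dim, as PPP1R3B, a glycogen-targeting subunit like PPP1R3C, at 105 loaded, 45.9 unloaded and 28.5 at day 21 (3.67-fold higher).

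The highest ratio of all member probe sets came from 1 of the pair of RACK1 probe sets, RACK1 being a scaffold protein of the ribosome. It had a signal of 2914 on the loaded, 4060 on the unloaded and 11.8 on the day 21 array, a log2 bound of 7.59, whereas the other, with 7825 loaded, 11782 unloaded and 5557 at day 21, gave 0.49. The first was thus under 15.1 at day 21 alone, and the other was far above it on all 3 arrays. Unnamed here but far apart were 1 probe set with a signal of 359 loaded, 174 unloaded and 4.22 at day 21 (at least 23.7-fold higher) and another with 574 loaded, 224 unloaded and 26.9 at day 21 (21.3-fold higher), and on the lower side 1 with 27.2 loaded, 21.1 unloaded and 257 at day 21 (9.46-fold lower) and another with 14.8 loaded, 44.7 unloaded and 138 at day 21 (at least 9.13-fold lower).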
